A study of Mus musculus with 6 samples.

Results

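Mouse hearts treated with a base editor against Camk2d were examined here for the RNA of macrophages and other myeloid cells, through 39 marker genes that were looked up by symbol among the 35976 genes of a read count table. The markers comprise 11 genes of resident cardiac macrophages, 14 genes shared by most macrophages, 6 genes of monocytes and recruited cells, and 8 genes of leukocytes in general. Of the 39, 38 had enough counts to be tested, and Timd4 did not. The edited group, called sgRNA7, held 3 libraries from hearts of wild-type (WT) mice given AAV-MYL2-TadA8e-Sauri-U6-Camk2d sgRNA7. This is an adeno-associated virus that carries the adenine deaminase TadA8e joined to the Cas9 protein Sauri under the heart muscle promoter MYL2, with the guide sgRNA7 under the U6 promoter. The guide is aimed at the splice donor of Camk2d intron 7. The control group held 3 libraries from hearts of WT mice with no treatment, so virus, editor and edit differed between the groups together. The labels give no age, sex, dose, time after injection or heart region. They also do not say that each library is a separate animal, so p-values measure the spread between these libraries.

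Macrophages are the most common leukocytes of the healthy heart. Resident cells that carry Lyve1, Timd4, Folr2 and Cd163 mostly renew themselves in place, clear dead cells and debris and live beside vessels and muscle cells. Cells that carry Ccr2 come from blood monocytes and enter in larger numbers after injury. Resident macrophages depend largely on the receptor Csf1r for survival. The transcription factor PU.1, encoded by Spi1, sets up the gene expression of both kinds of cell.

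Counts per library totalled 17062412 to 23097998, and every value below is a TMM-normalized CPM (a read count corrected for library size) unless it is given per kilobase of exon. Camk2d, the targeted gene, was at 138, 130 and 164 CPM in sgRNA7 hearts, against 226, 220 and 224 CPM in control hearts. Its log2 fold change, sgRNA7 over control, was -0.63 (SE 0.07, adjusted p = 4.76e-04). An exact permutation test on its log2 CPM, two-sided over 20 arrangements, reached its lower limit of p = 0.1. The libraries differed in atrial tissue. The summed level of 6 atrial muscle genes was 1812, 1196 and 2716 CPM in sgRNA7 hearts, against 68.3, 1910 and 44.1 CPM in controls 1, 2 and 3. Bmp10, 1 of these 6, was at 0, 0 and 0.112 CPM in sgRNA7 hearts, against 0.0598, 101.8 and 0.0522 CPM in controls 1, 2 and 3. Control 2 was thus near the sgRNA7 hearts in the atrial sum but not in this gene. The summed level of 10 mesothelial genes, which mark the outer lining of the heart, was 53.7, 62.3 and 36.0 CPM in sgRNA7 hearts, against 29.4, 29.2 and 29.7 CPM in controls. Most of the control sum was Wt1, at 14.07, 17.47 and 14.02 CPM in sgRNA7 hearts, against 20.81, 17.85 and 21.14 CPM in controls. The sum therefore understates the other genes of the list, whose median log2 change, Wt1 included, was 2.05.

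Among the tested markers 1 rose and 0 fell. Gas6, a secreted ligand that bridges dying cells to phagocytes, rose to 217, 242 and 224 CPM in sgRNA7 hearts, against 185, 187 and 184 CPM in controls, which is 1.23-fold (log2 0.29, SE 0.05, adjusted p = 0.00502 by edgeR's quasi-likelihood test). The other 37 tested markers did not pass the adjusted p threshold of 0.05. That is 1 called higher and 0 called lower among 38 tested markers, or 2.63%, while across the 14879 tested genes 9.66% were called, 4.93% higher and 4.74% lower (733 and 705 genes, or 849 and 531 with upper-quartile scaling). At an unadjusted p under 0.05 there were 8 markers, of which 6 had estimates below 0, and 24.4% of all tested genes were past that limit. In a test for changes above 1.5-fold 0 markers passed, against 0.289% of all tested genes. The call of Gas6 was lost without control 3 (log2 0.29, adjusted p = 0.0505), with control 2 as the only control (0.28, adjusted p = 0.274) and with the atrial gene Myl7 as a covariate (0.29, adjusted p = 0.134), settings in which its size stayed near the same value.

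The estimates leaned downwards by small amounts. The median log2 fold change of the 38 markers was -0.09, against 0.00125 over all tested genes, and 27 of the 38 had estimates below 0, against 49.7% of all tested genes. The sgRNA7 and control libraries did not overlap for 10 markers that were lower in sgRNA7 hearts (Csf1r, C1qa, C1qb, C1qc, Mpeg1, Cd14, Pf4, Mrc1, Stab1 and Fcer1g), a pattern seen in 14.7% of all tested genes. They did not overlap for 2 markers that were higher (Gas6 and Plac8), against 14.6% of all tested genes. For 27 of the 38 markers the 95% interval of the change lay within 1.5-fold in both directions, and for 35 it lay within 2-fold. In whole tissue, fewer cells of a type and less RNA per cell cannot be told apart. The sum of all 39 markers was 569, 596 and 599 CPM in sgRNA7 hearts, against 572, 599 and 559.5 CPM in controls, with overlapping groups. The sum of the 38 markers other than Gas6, a set taken after the values were seen, was 353, 354 and 375 CPM in sgRNA7 hearts. It was 386, 412 and 375 CPM in controls, so that sgRNA7 3 and control 3 had the same level. The largest part of this second sum was Stab1, which some endothelia also express.

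**Figure D1:**
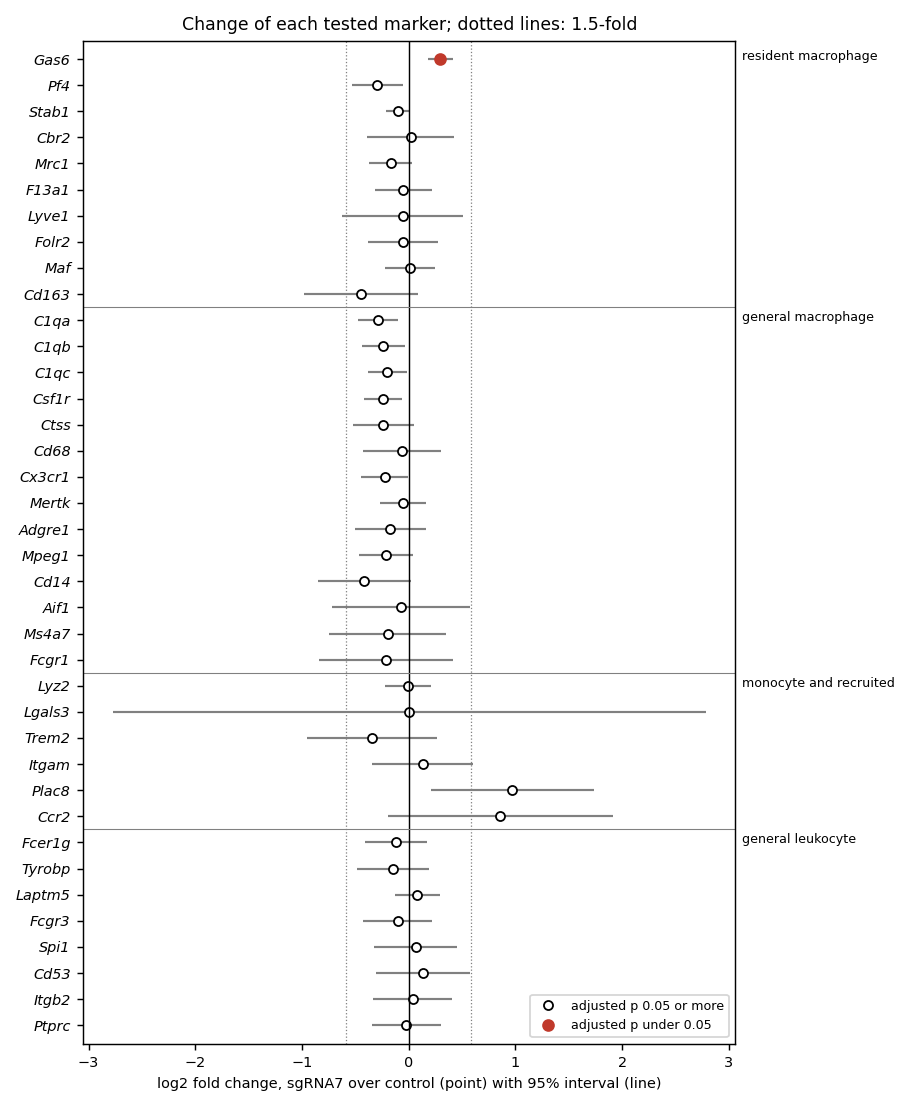
Log2 fold change (sgRNA7 over control) of the 38 tested markers, grouped by role, with points for the estimates and lines for the 95% intervals. Dotted lines mark 1.5-fold in either direction. Gas6 is the filled point, with an interval of 0.18 to 0.41, and the widest interval belongs to Lgals3 (-2.77 to 2.78).

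Per kilobase of exon, the scale on which genes can be compared with each other, Gas6 stood far above the rest. It was at 87.7 ± 5.14 CPM per kb in sgRNA7 hearts and 71.6 ± 0.485 CPM per kb in controls (SD, n = 3 each). Next came Lyz2, which encodes lysozyme, at 25.2 ± 3.84 CPM per kb in sgRNA7 hearts and 25.2 ± 1.19 CPM per kb in controls. The mouse has a near-identical lysozyme gene, Lyz1, and the treatment of reads that match both is not stated. The 3 chains of complement C1q followed, with means of 13.6, 13.7 and 13.9 CPM per kb for C1qa, C1qb and C1qc in sgRNA7 hearts, against 16.7, 16.1 and 15.9 CPM per kb in controls. Stab1 and Pf4 were the remaining markers above 10 CPM per kb. At the low end stood Timd4, at 0.139 CPM per kb in sgRNA7 hearts and 0.158 CPM per kb in controls. Ccr2 averaged 0.269 CPM per kb in sgRNA7 hearts and 0.144 CPM per kb in controls, and Plac8 averaged 0.296 CPM per kb in sgRNA7 hearts and 0.149 CPM per kb in controls. The scarcest markers thus included 1 of resident macrophages and 2 of monocytes. The ratio of Gas6 to Csf1r, both per kb, was 13.6, 15.5 and 13.5 in sgRNA7 hearts, against 9.93, 8.73 and 11 in controls. This ratio could not overlap between groups, because every sgRNA7 heart was above the controls for Gas6 and below them for Csf1r.

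**Figure D2:**
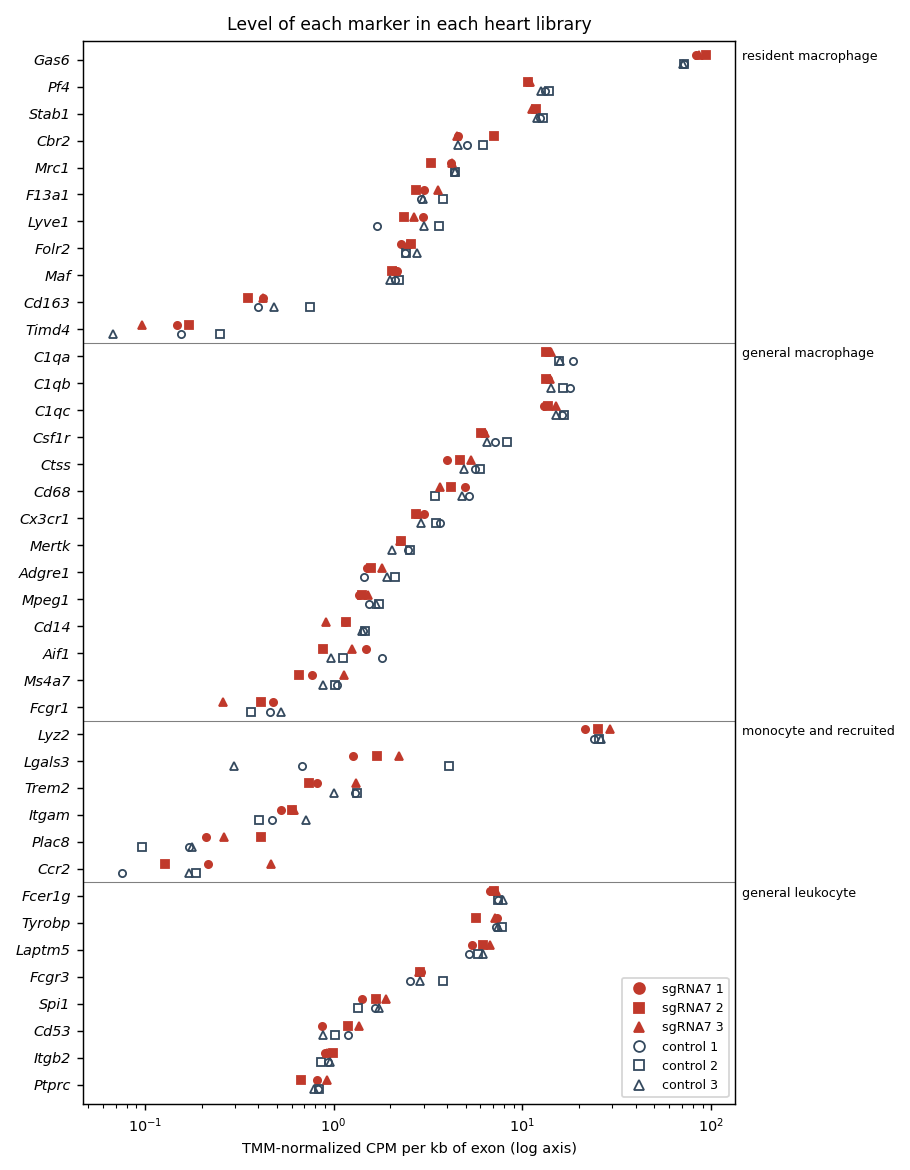
Level of each of the 39 markers in each of the 6 libraries, as TMM-normalized CPM per kb of exon on a log axis, with markers grouped by role and ordered by their control mean. Filled symbols are sgRNA7 hearts, drawn above the open symbols of the controls. Gas6 lies at the top of the range, Timd4, Ccr2 and Plac8 at the bottom, and Lgals3 shows the widest scatter among controls.

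Gas6 acts through 3 receptor kinases, Tyro3, Axl and Mertk, and shares them with the related protein S, encoded by Pros1. The pathway lets phagocytes take up dying cells and damps inflammation. Gas6 is made by vascular and stromal cells as well as by macrophages. Of the 3 receptors, Tyro3 rose to 14.3, 15.4 and 16.1 CPM in sgRNA7 hearts, against 10.1, 9.69 and 9.61 CPM in controls (log2 0.64, SE 0.09, adjusted p = 8.9e-04). Axl was at 133, 145 and 146 CPM in sgRNA7 hearts, against 138, 129 and 137 CPM in controls (adjusted p = 0.51), and the 95% interval of its log2 change ran from -0.05 to 0.19. Mertk, the receptor most typical of macrophages and itself one of the 39 markers, was at 11.3, 11.3 and 11.2 CPM in sgRNA7 hearts, against 12.3, 12.6 and 10.1 CPM in controls (adjusted p = 0.806, interval -0.27 to 0.17). Pros1 was at 32.8, 33.1 and 34.6 CPM in sgRNA7 hearts, against 31.8, 32.2 and 32.9 CPM in controls (adjusted p = 0.667). The receptors that overlap between groups are thus the macrophage receptor and the most abundant one. In a list of 16 partners of dying-cell uptake, 15 were tested, 2 rose and 0 fell, with a median log2 change of 0.16. The second rise was Lrp1, a large scavenger receptor, at 157, 203 and 165 CPM in sgRNA7 hearts, against 121, 143 and 133 CPM in controls (log2 0.41, SE 0.10, adjusted p = 0.0446). Lrp1 lost its call without sgRNA7 3, control 1, control 2 or control 3 (adjusted p = 0.0513, 0.126, 0.0517 and 0.148).

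**Figure D3:**
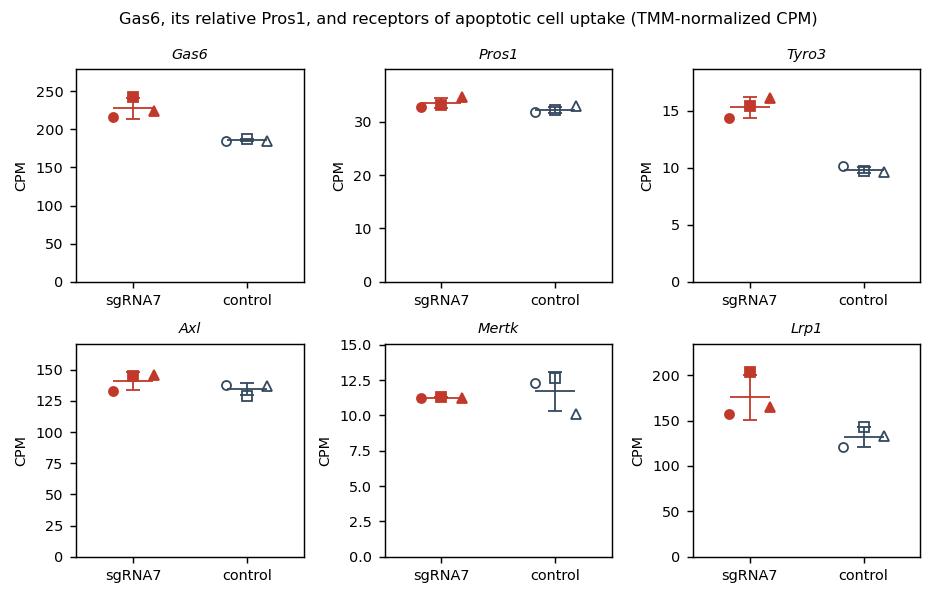
TMM-normalized CPM of Gas6, Pros1, Tyro3, Axl, Mertk and Lrp1 in the 3 sgRNA7 and 3 control libraries, with bars for the mean and SD. Circles, squares and triangles are replicates 1, 2 and 3. Gas6, Tyro3 and Lrp1 are separated between the groups, and Pros1, Axl and Mertk overlap.

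Markers of other cells stood beside the rise of Gas6 as follows. In controls 1, 2 and 3, where the atrial sum was 68.3, 1910 and 44.1 CPM, Gas6 stayed between 184 and 187 CPM. The summed level of 9 fibroblast genes was 7779, 9824 and 8216 CPM in sgRNA7 hearts, against 6612, 8296 and 6749 CPM in controls. The library sgRNA7 2 was highest for this sum, for the mesothelial sum and for Gas6. Most of the fibroblast sum came from the collagen genes Col1a1, Col1a2 and Col3a1, each highest in sgRNA7 2. The other fibroblast genes, Pdgfra, Dcn, Lum, Tcf21, Dpt and Gsn, were each highest in another library. Of these 9 fibroblast genes 1 rose, Lum (log2 0.26, adjusted p = 0.0182), and 0 fell. Lum lost its call without sgRNA7 3, control 1 or control 3 (adjusted p = 0.104, 0.0846 and 0.133). Of the 10 mesothelial genes 8 rose and 1, Wt1, fell, and none of the 10 was at 0 in every library. Without sgRNA7 2, Gas6 had a log2 change of 0.25 and an adjusted p of 0.00616. The part of these cells in the rise was not tested.

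No tested gene of resident macrophages other than Gas6 passed the threshold. Lyve1, a hyaluronan receptor of vessel-associated macrophages and of lymphatic endothelium, was at 7.76, 6.16 and 6.98 CPM in sgRNA7 hearts, against 4.43, 9.37 and 7.88 CPM in controls, with controls 1 and 2 at the 2 ends of the range. Folr2, a folate receptor, was at 3.58, 4.01 and 3.91 CPM in sgRNA7 hearts, against 3.77, 3.79 and 4.33 CPM in controls (adjusted p = 0.878). Timd4, a receptor for phosphatidylserine on dying cells, had 8, 7 and 4 counts in sgRNA7 hearts, against 6, 11 and 3 counts in controls, too few for the test. These 3 genes gave overlapping groups. Cd163, the scavenger receptor for haemoglobin bound to haptoglobin, was at 1.92, 1.58 and 1.90 CPM in sgRNA7 hearts, against 1.79, 3.37 and 2.19 CPM in controls (log2 -0.45, adjusted p = 0.293), with control 2 highest. Mrc1, the mannose receptor, was at 22.3, 17.4 and 22.5 CPM in sgRNA7 hearts, against 23.2, 23.4 and 23.4 CPM in controls (adjusted p = 0.281). Stab1, a scavenger receptor of macrophages and some endothelia that shares 1.35% of its exon bases with Nt5dc2 on the other strand, was at 93.7, 94.7 and 90.7 CPM in sgRNA7 hearts, against 100.1, 103 and 96.1 CPM in controls (log2 -0.10, adjusted p = 0.277). The groups did not overlap for Mrc1 or Stab1, and neither passed the threshold.

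Pf4, a chemokine gene of platelets and resident macrophages, was tight within each group. It was at 6.27, 6.28 and 6.42 CPM in sgRNA7 hearts, against 7.72, 8.11 and 7.41 CPM in controls (log2 -0.29, SE 0.11, adjusted p = 0.124), and its interval of -0.54 to -0.05 lay below 0. The summed level of 7 platelet genes was 5.29, 8.82 and 6.14 CPM in sgRNA7 hearts, against 4.90, 4.74 and 5.01 CPM in controls. Of the 2 platelet genes tested, Itga2b overlapped between the groups and Gp1bb did not. Gp1bb shares 28.4% of its exon bases with Sept5 on the same strand, so this sum may hold reads of another gene. F13a1, Cbr2 and Maf, for a clotting factor subunit, a carbonyl reductase and a transcription factor, had log2 changes of -0.05, 0.02 and 0.01 with adjusted p of 0.851 to 0.972. Among the 11 resident markers control 2 held the highest level for 7, and each of the 3 sgRNA7 hearts had a median between 0.969 and 0.983 of the markers' mean over 6 libraries. Lymphatic endothelium also expresses Lyve1. The sum of its 6 genes was 156, 125 and 147 CPM in sgRNA7 hearts, against 124, 127 and 133 CPM in controls. Most of this sum was Prox1, at 101.7, 72.83 and 96.43 CPM in sgRNA7 hearts, against 78.35, 80.74 and 82.48 CPM in controls. Of the 5 tested lymphatic genes Reln rose (log2 0.70, adjusted p = 0.00396). The part of these vessels in the level of Lyve1 was not tested.

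The 14 general macrophage markers all had estimates below 0, with a median log2 change of -0.21, and 0 of them passed the threshold. A shared direction was not particular to them. The 10 blood endothelial genes also all had estimates below 0 (median -0.03), and the 9 fibroblast genes all had estimates above 0 (median 0.13). Genes of 1 cell type can vary together, so such counts are not of independent genes. The sum of the 14 macrophage markers was 122, 120 and 127 CPM in sgRNA7 hearts, against 148, 149 and 132 CPM in controls. Csf1r, the receptor for the growth factors CSF1 and IL-34, was at 27.0, 26.5 and 28.0 CPM in sgRNA7 hearts, against 31.6, 36.2 and 28.5 CPM in controls (log2 -0.24, SE 0.08, adjusted p = 0.0886). Control 2 was highest and control 3 lay next to the sgRNA7 hearts, and without control 2 the log2 change was -0.15 (adjusted p = 0.294). Adgre1, which encodes the classical mouse macrophage antigen F4/80, was at 4.95, 5.15 and 5.92 CPM in sgRNA7 hearts, against 4.72, 6.90 and 6.32 CPM in controls (log2 -0.17, adjusted p = 0.552). Cx3cr1, the fractalkine receptor, was at 11.3, 10.3 and 10.5 CPM in sgRNA7 hearts, against 13.7, 13.1 and 10.9 CPM in controls (log2 -0.23, adjusted p = 0.199). Cd14, a co-receptor for bacterial lipopolysaccharide, was at 1.92, 1.92 and 1.51 CPM in sgRNA7 hearts, against 2.39, 2.42 and 2.35 CPM in controls (log2 -0.42, adjusted p = 0.228). Each of these differences failed the correction, although in Csf1r and Cd14 every sgRNA7 heart was below every control. The remaining general markers, Cd68, Mpeg1, Ctss, Fcgr1, Ms4a7 and Aif1, had log2 changes from -0.24 to -0.06 and adjusted p of 0.298 to 0.918.

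The C1q genes had similar estimates, all below 0 and none past the threshold. C1qa, C1qb and C1qc encode the 3 chains of the first complement component, which macrophages make in most tissues, and they lie side by side on the minus strand of mouse chromosome 4 (mm10, 136880145 to 136898844 from the end of C1qb to the start of C1qa). C1qa was at 14.5, 14.4 and 15.4 CPM in sgRNA7 hearts, against 20.04, 17.01 and 17.1 CPM in controls (log2 -0.29, SE 0.09, adjusted p = 0.0527). C1qb was at 14.5, 14.1 and 14.9 CPM in sgRNA7 hearts, against 19.0, 17.4 and 15.0 CPM in controls (log2 -0.24, SE 0.09, adjusted p = 0.13). C1qc was at 14.5, 15.3 and 16.86 CPM in sgRNA7 hearts, against 18.1, 18.5 and 16.91 CPM in controls (log2 -0.20, SE 0.08, adjusted p = 0.157). In each of the 3 genes all sgRNA7 hearts lay below all controls, for C1qb and C1qc by a narrow margin to control 3. C1qa passed the threshold without a filter on low counts (adjusted p = 0.0251) and with voom (0.0491), and its adjusted p lay between 0.0251 and 0.565 under the alternatives tried. Per kb, the ratio of C1qa to C1qb was 0.979, 0.997 and 1.02 in sgRNA7 hearts, against 1.04, 0.958 and 1.12 in controls, and that of C1qc to C1qb was 0.947, 1.02 and 1.07 in sgRNA7 hearts, against 0.905, 1.01 and 1.06 in controls. The RNA of the 3 chains was thus near equal per kb in each library.

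The sequences before the starts of C1qb, C1qc, Pf4 and Gas6 are shown because the first 3 belong to the markers whose groups did not overlap on the lower side and the last is the marker that rose. They are the 250 bases before each start from RefSeq on GRCm38.p6, on the strand of the gene, at chr4:136886201-136886450 (minus), chr4:136892915-136893164 (minus), chr5:90772185-90772434 (plus) and chr8:13494536-13494785 (minus). Capitals mark GAGGAA, the core of the sequence bound by PU.1, or its reverse complement TTCCTC.
C1qb: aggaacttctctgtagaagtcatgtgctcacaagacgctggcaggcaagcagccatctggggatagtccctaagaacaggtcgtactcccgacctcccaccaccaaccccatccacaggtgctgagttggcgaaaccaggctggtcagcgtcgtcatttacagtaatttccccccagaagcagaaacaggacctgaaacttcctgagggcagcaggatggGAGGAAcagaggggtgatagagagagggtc
C1qc: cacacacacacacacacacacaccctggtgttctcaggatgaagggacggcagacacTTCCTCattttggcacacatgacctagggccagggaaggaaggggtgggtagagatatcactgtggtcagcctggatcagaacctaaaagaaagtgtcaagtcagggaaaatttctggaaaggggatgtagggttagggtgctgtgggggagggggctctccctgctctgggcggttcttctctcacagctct
Pf4: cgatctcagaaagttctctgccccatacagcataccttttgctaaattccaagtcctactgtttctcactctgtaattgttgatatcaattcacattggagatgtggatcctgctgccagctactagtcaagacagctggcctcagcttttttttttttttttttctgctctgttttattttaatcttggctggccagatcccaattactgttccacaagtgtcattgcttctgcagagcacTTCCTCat
Gas6: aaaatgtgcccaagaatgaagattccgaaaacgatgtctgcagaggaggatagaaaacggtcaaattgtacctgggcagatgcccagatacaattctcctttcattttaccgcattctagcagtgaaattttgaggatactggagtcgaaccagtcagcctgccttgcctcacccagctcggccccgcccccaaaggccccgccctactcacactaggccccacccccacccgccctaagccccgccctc
C1qb, C1qc and Pf4 each hold the core once, and Gas6 does not hold these letters in this window. Promoter windows of 250 bases before to 50 after the start were at hand for 30 of the 39 markers. On either strand, GAGGAA occurred in 19 of these 30 genes, or 63.3%, against 31.3% of all 27025 genes with a window. The longer form GAGGAAGT, which contains it, occurred in 5 of 30, or 16.7%, against 3.69% of all genes: F13a1, Pf4, C1qc, Ctss and Cd53. Of the markers lower without overlap, Mrc1, Stab1, Pf4, C1qb and C1qc were among the 19 with GAGGAA. Csf1r, C1qa, Mpeg1, Cd14 and Fcer1g were not, for want of the core or of a window. Plac8, which was higher without overlap, was among the 19. The printed genes were picked, and they do not compare markers by direction. A match is a description of letters and not a measured site.

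Of the 6 genes of monocytes and recruited cells Lyz2 was abundant, while Plac8 and Ccr2 were scarce and had the 2 largest estimates among the 38 tested markers. Plac8, an inflammatory monocyte gene that brown fat also expresses, was at 0.810, 1.58 and 1.01 CPM in sgRNA7 hearts, against 0.658, 0.369 and 0.679 CPM in controls, from 19, 28 and 18 counts in sgRNA7 hearts and 11, 7 and 13 counts in controls. Its log2 change was 0.97 (SE 0.36, adjusted p = 0.108), and without sgRNA7 2 it was 0.66 (adjusted p = 0.327). sgRNA7 2 was also the library with the highest sum of 6 adipocyte genes, at 0.171, 36.5 and 4.47 CPM in sgRNA7 1, 2 and 3, against 0.239, 3.42 and 0.157 CPM in controls 1, 2 and 3. The sum of 12 neutrophil genes was likewise highest there, at 3.92, 7.58 and 3.91 CPM in sgRNA7 hearts, against 3.41, 3.95 and 3.86 CPM in controls, and the part of either cell type in the level of Plac8 was not tested. Ccr2, the receptor through which monocytes leave the marrow and enter tissue, was at 0.853, 0.509 and 1.84 CPM in sgRNA7 hearts, against 0.299, 0.737 and 0.679 CPM in controls. The high value was sgRNA7 3, with 33 counts, and the others held 5 to 20. The log2 change of Ccr2 was 0.86 (SE 0.48, adjusted p = 0.305), and without sgRNA7 3 it was 0.26 (adjusted p = 0.809).

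Lgals3, which encodes galectin-3, varied more among controls than any other marker. It was at 1.79, 2.37 and 3.13 CPM in sgRNA7 hearts, against 0.956, 5.74 and 0.418 CPM in controls 1, 2 and 3, and its log2 change was 0.00 (SE 1.02, adjusted p = 0.999). The controls with low Lgals3 were controls 1 and 3, the libraries with low atrial RNA. Without control 2 the log2 change of Lgals3 was 1.82 (adjusted p = 0.0153), and with Myl7 as a covariate it was -1.58 (adjusted p = 0.0214). The part of atrial tissue in its level was not tested beyond this. Lyz2 was at 22.6, 26.5 and 30.7 CPM in sgRNA7 hearts, against 25.2, 27.1 and 27.6 CPM in controls (log2 -0.01, adjusted p = 0.977). Itgam, the integrin chain CD11b of monocytes and neutrophils, was at 2.47, 2.83 and 2.90 CPM in sgRNA7 hearts, against 2.21, 1.90 and 3.34 CPM in controls (log2 0.13, adjusted p = 0.781). Trem2, a lipid receptor of macrophages in injured tissue, had a log2 change of -0.35 and an adjusted p of 0.502. These 3 genes overlapped between groups.

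**Figure D4:**
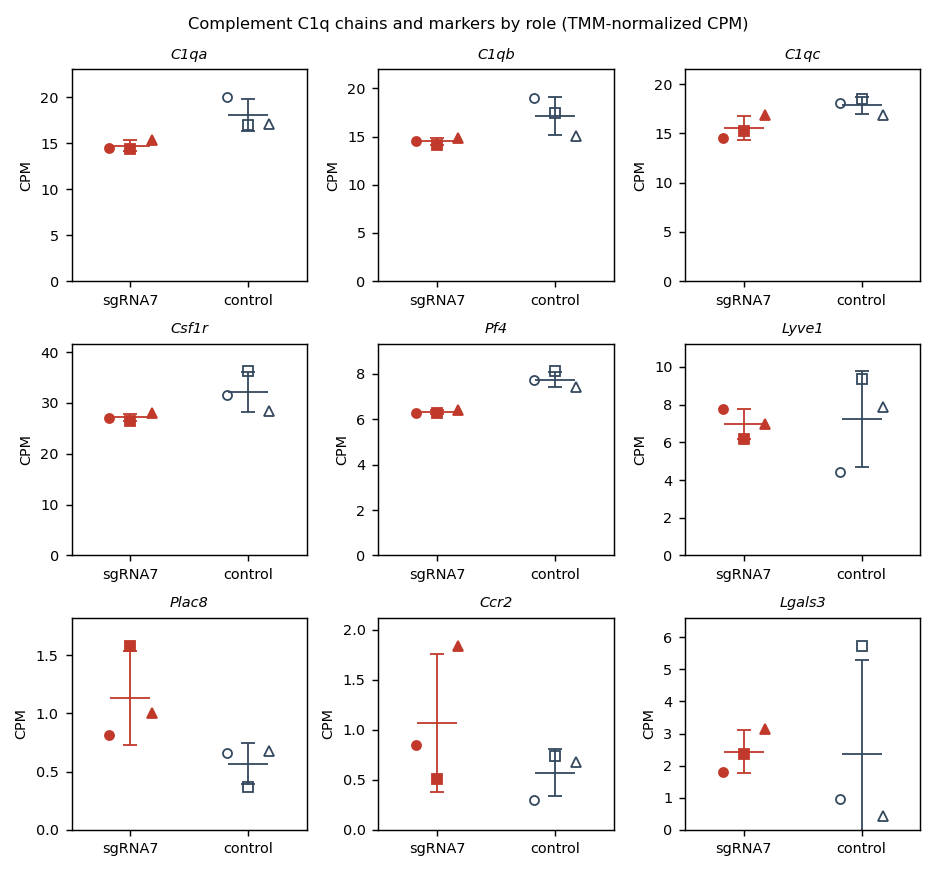
TMM-normalized CPM of C1qa, C1qb, C1qc, Csf1r, Pf4, Lyve1, Plac8, Ccr2 and Lgals3 in the 3 sgRNA7 and 3 control libraries, with bars for the mean and SD. Circles, squares and triangles are replicates 1, 2 and 3. The C1q chains, Csf1r and Pf4 are lower in every sgRNA7 heart, Plac8 is higher in each, and Lgals3 is highest in control 2, where the error bar is clipped at 0.

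The markers of leukocytes in general showed no change past the threshold. Ptprc, which encodes the pan-leukocyte antigen CD45, was at 4.78, 3.96 and 5.42 CPM in sgRNA7 hearts, against 4.84, 4.90 and 4.65 CPM in controls, and the interval of its log2 change ran from -0.35 to 0.30. Spi1 was at 2.81, 3.34 and 3.74 CPM in sgRNA7 hearts, against 3.29, 2.69 and 3.45 CPM in controls (log2 0.06, adjusted p = 0.876). The groups overlapped for both. Tyrobp and Fcer1g encode 2 small adaptors that carry the signals of Trem2 and of Fc receptors. Tyrobp was at 4.18, 3.22 and 4.08 CPM in sgRNA7 hearts, against 4.13, 4.42 and 4.23 CPM in controls (log2 -0.15, adjusted p = 0.62). Fcer1g was at 4.43, 4.64 and 4.75 CPM in sgRNA7 hearts, against 4.90, 4.90 and 5.22 CPM in controls (log2 -0.12, adjusted p = 0.638). The ratio of Fcer1g to Tyrobp per kb was 0.918, 1.24 and 1.01 in sgRNA7 hearts, against 1.03, 0.957 and 1.07 in controls. Laptm5, Cd53, Itgb2 and Fcgr3, for a lysosomal protein, a tetraspanin, the shared chain of the leukocyte integrins and an Fc receptor, had log2 changes between -0.10 and 0.14. Laptm5 shares 2.87% of its exon bases with Gm38599 on the other strand.

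Genes that make or guide macrophages, were compared by list. Of 9 growth factor genes and receptors 0 rose and 1 fell, with a median log2 change of 0.04. Csf1, the main ligand of Csf1r, was at 39.5, 39.9 and 38.1 CPM in sgRNA7 hearts, against 37.4, 40.0 and 37.2 CPM in controls (log2 0.04, adjusted p = 0.782). Il34, the second ligand, was at 1.75, 2.66 and 2.62 CPM in sgRNA7 hearts, against 3.65, 2.26 and 2.09 CPM in controls (adjusted p = 0.705). The gene that fell was Kitl, the stem cell factor used by mast cells, at 153, 134 and 146 CPM in sgRNA7 hearts, against 178, 174 and 183 CPM in controls (log2 -0.31, SE 0.06, adjusted p = 0.00501, and 0.052 without control 3). Among 16 chemokines and receptors of monocytes 10 were tested, 1 rose and 0 fell. The rise was in Cx3cl1, the membrane-bound ligand of Cx3cr1, at 9.30, 7.35 and 6.48 CPM in sgRNA7 hearts, against 5.14, 5.79 and 4.54 CPM in controls (log2 0.59, SE 0.15, adjusted p = 0.0287). It did not pass without sgRNA7 1, control 1 or control 3 (adjusted p = 0.104, 0.0935 and 0.16) or with DESeq2 (0.08).

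In the complement list 1 of 14 genes rose and 0 fell, with a median log2 change of 0.03. C4b, the fourth complement component, rose to 2.39, 3.62 and 3.24 CPM in sgRNA7 hearts, against 0.299, 1.05 and 0.522 CPM in controls (log2 2.26, SE 0.34, adjusted p = 0.00167, and 0.0327 in the test for changes above 1.5-fold). Mouse C4b has a near-identical neighbour, C4a, and how reads that match both were treated is not stated. C3, the central component, was at 17.5, 24.4 and 10.4 CPM in sgRNA7 hearts, against 1.85, 3.00 and 4.80 CPM in controls (log2 2.42, SE 0.50, adjusted p = 0.0617). Each sgRNA7 heart was above each control for both genes, as it was for the mesothelial sum given above, whose part in them was not tested. Of 12 tested ITAM signalling genes 0 passed, and the smallest p belonged to Syk, the kinase that binds these adaptors (34.1, 37.0 and 38.2 CPM in sgRNA7 hearts, against 34.2, 31.2 and 31.7 CPM in controls, adjusted p = 0.148). Of 12 myeloid transcription factor genes 0 rose and 1 fell, Cebpb, which many cell types use in inflammation (9.72, 10.4 and 9.05 CPM in sgRNA7 hearts, against 14.1, 12.9 and 14.2 CPM in controls, log2 -0.50, adjusted p = 0.00538). Of 14 lysosomal genes 1 rose and 0 fell. It was Cd63, a tetraspanin of late endosomes (126, 139 and 128 CPM in sgRNA7 hearts, against 112, 105 and 107 CPM in controls, log2 0.28, adjusted p = 0.00633, and 0.0621 without control 3). With Myl7 as a covariate or with control 2 as the only control, none of Kitl, Cx3cl1, C4b, Tyro3, Lrp1, Cebpb and Cd63 passed the threshold, at adjusted p of 0.0585 to 0.558.

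Red cell RNA was abundant in these hearts and RNA of T cells, natural killer cells and neutrophils was scarce. The sum of 7 erythroid genes was 790, 1232 and 1011 CPM in sgRNA7 hearts, against 1125, 989 and 1279 CPM in controls, with overlapping groups and 0 of 7 called. The sum of 10 T cell genes was 6.57, 4.13 and 3.69 CPM in sgRNA7 hearts, against 3.29, 2.53 and 5.06 CPM in controls. The sum of 8 natural killer cell genes was at most 0.679 CPM in sgRNA7 hearts and at most 0.418 CPM in controls, and Ly6g, the defining neutrophil gene, had 0 counts in every library. No gene of the neutrophil, dendritic cell, T cell or B cell lists was called among 3, 4, 2 and 6 tested. Of 6 tested mast cell genes 2 rose and 1 fell. Cpa3, a mast cell protease, was at 2.56, 2.71 and 3.35 CPM in sgRNA7 hearts, against 1.32, 1.79 and 1.67 CPM in controls (log2 0.84, adjusted p = 0.0242), and Mcpt4 had a log2 change of 0.89 (adjusted p = 0.0242). Hdc, which makes histamine, fell at a log2 change of -0.66 (adjusted p = 0.029). The rises of Cpa3 and Mcpt4 were lost without sgRNA7 3, control 1 or control 3 and with DESeq2, at adjusted p of 0.0969 to 0.134. Of the 2 tested platelet genes Gp1bb rose (log2 1.12, adjusted p = 0.0244), a call lost without any library but sgRNA7 1, and 28.4% of its exon bases are shared with Sept5 on the same strand.

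Muscle and vessel genes give the setting for markers measured as a share of all RNA. The sum of 8 ventricular muscle genes was 64120, 62290 and 60190 CPM in sgRNA7 hearts, against 72340, 71310 and 73950 CPM in controls, and 4 of the 8 fell. The sum of 10 blood endothelial genes was 2194, 2297 and 2291 CPM in sgRNA7 hearts, against 2369, 2258 and 2306 CPM in controls, with 0 of 10 called. The sum of the general macrophage markers, like the ventricular sum, was below every control in each sgRNA7 heart, while the mesothelial sum was above every control. The part of tissue makeup in the macrophage sum was not tested.

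**Figure D5:**
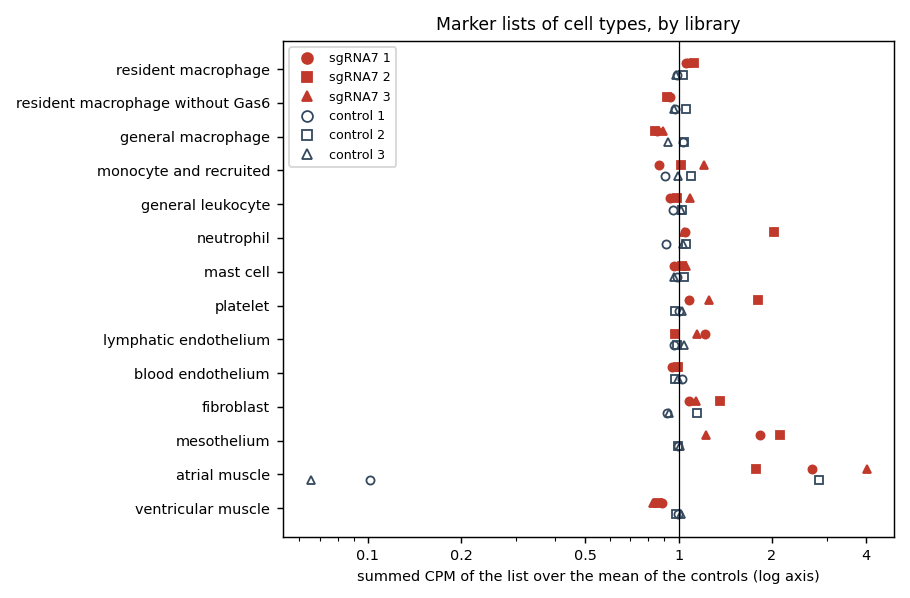
Summed CPM of 14 marker lists in each library, divided by the mean of the 3 controls, on a log axis. Filled symbols are sgRNA7 hearts, drawn above the open symbols of the controls. The general macrophage and ventricular muscle sums lie below 1 in all 3 sgRNA7 hearts, the mesothelial sum lies above 1, and the atrial sum separates controls 1 and 3 from the other libraries.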

How the data were processed

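The series holds 6 RNA libraries from mouse hearts, 3 of the sgRNA7 group and 3 of the untreated control group. The authors deposited 1 table of raw read counts per gene with the exon length of each gene. Per the submitters' processing notes, the tools were featureCounts, STAR, cutadapt and FastQC and the build mm10. Versions, strand setting and the handling of multiply matching reads are not stated there. The table holds 2 columns for each library with identical values, and the first was used. No pair of libraries in a group agreed within sampling noise (chi-square per degree of freedom of at least 3.95).

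Genes were kept by filterByExpr (14879 of 35976), scaled by TMM and tested in edgeR 4.0.16 under R 4.3.3 (robust quasi-likelihood fit, group as the only term), with Benjamini-Hochberg adjustment over all tested genes. glmTreat tested changes above 1.5-fold. Standard errors come from the log2 fold change and its F statistic, and 95% intervals from the t quantile at each gene's degrees of freedom. Levels per kb use the exon length in the table. Steps were tested on simulated data. Promoter sequences are RefSeq's on GRCm38.p6, the assembly that mm10 names.

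The members, lists and alternatives were chosen with earlier results of these data known. Values per library are given for markers past the threshold, for the 12 with the smallest p and for the defining genes of each role, and for genes of the 7 partner lists past the threshold or, where none was, with the smallest p. The lists of other cell types are given by numbers of genes called, by sums per library or by both, with at most 2 genes named by their smallest p. Lists for endocardium, for smooth muscle and pericytes, and for thymus and lymphoid tissue were also compared and are not given here. Lyz2, Lgals3, Mertk, Axl, Pros1, Csf1, Il34, C3, Cpa3, Wt1, Prox1 and Bmp10 were given per library outside that rule, after their values were seen. Hdc, Ly6g and the fibroblast genes other than Lum and Dpt were named outside it, also after their values were seen. Alternatives were other scalings, filters and tests (DESeq2 1.42.0, limma 3.58.1 with voom), a replicate block, each library left out, control 2 as the only control, Myl7 as a covariate, other thresholds, and mitochondrial and haemoglobin genes left out. Ighm and Igkc were not analysed here.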

Additional observations from a re-analysis of the deposited data

How the results depend on the processing

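Gas6 was the 1 marker called higher under the other scalings, filters and tests, with mitochondrial and haemoglobin genes left out and at thresholds of 0.01 and 0.1. With Myl7 as a covariate the number called higher was 0, with control 2 as the only control it was 0, and without single libraries it ran from 0 (without control 3) to 2 (without control 2, Lgals3 and Gas6). The number called lower was 2 without a filter (Csf1r and C1qa), 1 with voom (C1qa), 2 with Myl7 as a covariate (Lgals3 and Csf1r) and 2 at a threshold of 0.1 (Csf1r and C1qa). It was 0 under the other alternatives, including each library left out, and 0 markers passed the test above 1.5-fold under any alternative. The median log2 change of the markers was -0.21 with Myl7 as a covariate, -0.20 with control 2 as the only control, and -0.143 (without control 1) to -0.0592 (without sgRNA7 2) without single libraries. With Myl7 as a covariate Lgals3 had a log2 change of -1.58, against 0.00 with all libraries and no covariate. With control 2 as the only control Camk2d had a log2 change of -0.62 and an adjusted p of 0.0964. That fit takes its spread from the sgRNA7 hearts alone and assumes the lone control to vary like them. Of all genes, those called were 0.518% of those tested in it and 0.847% with Myl7 as a covariate, and in both the calls of Kitl, Cx3cl1, C4b, Tyro3, Lrp1, Cebpb, Cd63, Cpa3, Mcpt4, Gp1bb, Reln and Lum were lost. The cause was not tested. Of the 14 general macrophage markers, Cd68, Mertk, Fcgr1 and Aif1 had estimates above 0 under at least 1 alternative, none of them another scaling.

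The labels do not say whether replicate numbers pair libraries between the groups. Same-numbered libraries had correlations of deviations from the group means of 0.02, -0.10 and -0.08, and differently numbered ones ran from -0.06 to 0.11. With 3 libraries per group these values cannot show whether same-numbered libraries share a batch. With the replicate number as a block, Gas6 was again the 1 marker called higher (adjusted p 0.0167) and 0 were called lower, with 7.24% of all genes called. Depth limits the rare markers. For 11 of the 39 the mean count per library was under 50, among them Ccr2, Plac8, Timd4 and Trem2, whose small changes were not detectable at this depth.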
